A study of Mus musculus with 71 samples.

Results

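Peptides from inside the cell are shown to CD8+ T cells on MHC class I molecules, and 9 genes of this pathway were followed in mouse blood: H2-D1, H2-K1, H2-T23 and H2-Q7 (heavy chains), B2m (light chain), Tap1 and Tap2 (peptide transporter), Tapbp (the chaperone tapasin) and Nlrc5 (transactivator). The list was set by gene symbol. All 9 members were present, both among the 55416 genes of the count table and among the 10508 genes of the table of vst values (counts after a variance stabilizing transformation, on a log2-like scale).

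A class I molecule consists of a polymorphic heavy chain bound to the light chain β2-microglobulin. The proteasome cuts cytosolic proteins into peptides, the TAP transporter moves these into the endoplasmic reticulum, and tapasin bridges TAP to the empty class I molecule while it is loaded. Nearly all nucleated cells and also platelets carry class I molecules, and interferons raise the transcription of these genes, with NLRC5 as their main transactivator.

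Whole blood was taken at the end of the experiment from 71 female BALB/c AnNRj mice, 6 weeks old at inclusion, in a model of systemic sclerosis in which hypochlorous acid (HOCl) is injected into the skin on 5 days per week for 6 weeks. CTRL mice (n = 11) received PBS in place of HOCl, and HOCL mice (n = 12) received HOCl alone. Another 4 groups of 12 mice each received HOCl and carry the label E07, D11, D06 or BPR21, and are called here E07, D11, D06 and BPR21 mice. E07 and D11 are monoclonal antibodies (mAbs) against galectin-3, given under the skin at 20 mg/kg every 5 days, whereas the nature and the dose of D06 and BPR21 are not given in the sources used here. The genotype field reads HOCL for all mice, CTRL mice included, so the groups were taken from the sample titles. The groups were kept in separate cages, so that cage and group cannot be told apart. Because blood was sequenced as a whole, fewer cells of a type and less RNA per cell cannot be told apart in any result below.

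The promoters of the 2 most abundant heavy chain genes, of H2-Q7 and of B2m are shown because the first pair moved together from mouse to mouse, whereas H2-Q7 and B2m did not follow them as closely. The H2-Q7 values are uncertain as values of that gene alone, as shown with H2-Q6 below. A link between promoter letters and co-variation was not tested. Each line gives the 250 bases before the RefSeq transcription start, 5′ to 3′, on the strand of the gene. The capitals mark matches on either strand to GGGGATTCC (the core of the κB element of class I promoters), GAAANNGAA (a core of interferon response elements, N being any base) and CCAAT (read as ATTGG on the other strand).
H2-D1 (GRCm38.p6, chr17:35262844-35263093, plus strand): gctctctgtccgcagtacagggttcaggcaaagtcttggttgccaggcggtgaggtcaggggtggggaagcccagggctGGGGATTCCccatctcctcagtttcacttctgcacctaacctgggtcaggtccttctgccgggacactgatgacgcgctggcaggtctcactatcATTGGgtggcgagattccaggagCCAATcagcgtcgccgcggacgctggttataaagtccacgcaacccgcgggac
H2-K1 (GRCm38.p6, chr17:34000334-34000583, minus strand): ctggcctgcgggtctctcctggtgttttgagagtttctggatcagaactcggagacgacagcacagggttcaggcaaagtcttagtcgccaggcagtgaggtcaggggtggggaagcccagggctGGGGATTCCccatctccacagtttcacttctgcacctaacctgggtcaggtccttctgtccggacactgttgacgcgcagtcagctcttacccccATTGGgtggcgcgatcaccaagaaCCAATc
H2-Q7 (GRCm38.p6, chr17:35438905-35439154, plus strand): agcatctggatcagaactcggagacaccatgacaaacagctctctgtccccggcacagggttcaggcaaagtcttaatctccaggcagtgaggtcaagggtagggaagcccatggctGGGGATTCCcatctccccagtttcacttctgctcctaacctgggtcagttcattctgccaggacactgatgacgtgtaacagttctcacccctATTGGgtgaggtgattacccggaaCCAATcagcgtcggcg
B2m (GRCm38.p6, chr2:122147437-122147686, plus strand): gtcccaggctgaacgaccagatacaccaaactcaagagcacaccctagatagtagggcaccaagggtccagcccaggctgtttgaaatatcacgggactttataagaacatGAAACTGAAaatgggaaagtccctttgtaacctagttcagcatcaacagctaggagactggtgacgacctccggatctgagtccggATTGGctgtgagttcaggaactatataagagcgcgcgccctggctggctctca
Of the 9 members, 7 matched the RefSeq promoter table, which spans 300 bases per promoter (250 before and 50 after the start). GGGGATTCC was found in 3 of these 7 members, H2-D1, H2-K1 and H2-Q7, and in 0.250% of all 32851 promoters of the table. GAAANNGAA was found in B2m and H2-T23, and in 8.56% of all promoters. After GGGGATTCC, the H2-D1, H2-K1 and H2-Q7 lines share the bases cagtttcacttctg, which GAAANNGAA does not match. Other forms of interferon response element were not searched, so a missing match does not show that such an element is absent. CCAAT was found in 7 of 7 members and in 37.4% of all promoters. These matches describe the letters in this window and do not show binding.

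In the GENCODE annotation of GRCm39, 7 members lie on chromosome 17, from Tapbp (chr17:34134873-34148267) over H2-K1 (chr17:34214987-34219321), Tap1 (chr17:34405996-34416199), Tap2 (chr17:34422501-34435829), H2-D1 (chr17:35481691-35486475) and H2-Q7 (chr17:35658131-35662749) to H2-T23 (chr17:36340229-36345571). B2m lies on chromosome 2 (chr2:121977957-121983594) and Nlrc5 on chromosome 8 (chr8:95160984-95253900). Values are counts of reads on whole genes. BALB/c mice carry the d haplotype of the MHC, whereas the reads were aligned to a C57BL/6J reference of the b haplotype. The part of allele differences and of near-identical heavy chain copies in the counts was not tested.

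The total count of a mouse ran from 11932855 to 15948972. No vst values were given for HOCL mouse 8, which leaves 11 HOCL mice and 70 mice in all for the tests on vst values. Markers of red cell precursors took a mean of 8.41% of all counts in CTRL mice, 13.5% in HOCL, 7.93% in E07, 10.4% in D11, 12.0% in D06 and 10.7% in BPR21 mice, and all 8 lists of blood cell markers were detected in every mouse. Lgals3, which encodes galectin-3, differed among the 6 groups (limma F test, adjusted p = 0.00992), with its lowest group mean, 10.55 on the vst scale, in BPR21 mice.

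In 1 D06 mouse the level of H2-K1 was far below that of every other mouse. D06 mouse 8 had a vst value of 11.48, whereas the 69 other mice ran from 12.90 to 13.45. Its H2-D1 value of 13.34 was also the lowest of all mice, with 13.49 to 13.997 in the others. Its H2-T23 value of 11.760 was narrowly the lowest as well, and its B2m value of 14.63 lay just below those of the other D06 mice, while Tap1, Tap2, Tapbp and Nlrc5 lay inside the range of the other D06 mice. Across all genes this library did not stand out by number, with 174 genes outside the range of the other mice and a median of 158. However, 12 genes lay more than 1 log2 unit outside that range, 10 of them above it, and 5 of these were mitochondrial. Among these genes, chosen after their values were seen, mt-Co2 reached 13.62 (8.12 to 11.39 in the others), mt-Atp6 13.41 (7.70 to 11.31) and Rps18-ps5 11.39 (7.20 to 9.32). H2-K1 and Rps28 were the 2 genes below the range. Without this mouse the H2-K1 difference between D06 and HOCL mice was 0.03 in place of -0.10 and that between D06 and CTRL mice 0.00 in place of -0.13, the within-group SD was 0.12 in place of 0.23, and the gene most like H2-K1 across mice, after removal of the group means, was H2-D1 (r = 0.61) in place of Rpl13 (r = 0.63).

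H2-T23 had its own mouse apart. HOCL mouse 7 had a vst value of 12.67, whereas the 69 other mice ran from 11.76 to 12.28. In this mouse 20.4% of all counts fell on the erythroid list, the 9 members took 0.204% of all counts, and the size factor was 0.46. Across all genes, 707 lay outside the range of the other mice in this library, rank 9 among the mice, beside a median of 158. H2-T23 was thus 1 of many genes apart in it. Of the 14 genes more than 1 log2 unit outside the range of the other mice in HOCL mouse 7, all 14 were higher. Without it the H2-T23 difference was 0.01 between HOCL and CTRL mice and 0.02 between E07 and HOCL mice, and neither value passed the test with or without this mouse. HOCL mouse 8, which has no vst values, had a CPM of 561.7 for H2-K1 and 1341 for B2m, inside the range of the other HOCL mice, as were the other members except H2-T23 (224.3, lowest other mouse 224.5) and Tapbp (180.4, highest other mouse 180.3).

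The light chain was the most abundant member. Per gene length, B2m reached a median of 2616 TPM (transcripts scaled for exon length and to a fixed sum per mouse) over the 71 mice, with a range of 1132 to 4106. H2-D1 followed with a median of 949 TPM, ahead of H2-K1 with 579 TPM and H2-T23 with 233 TPM. The loading machinery was far lower, with medians of 83.5 TPM for Tapbp, 47.6 TPM for Tap1 and 34.5 TPM for Tap2. H2-Q7 and Nlrc5 were lowest, with medians of 22.98 and 19.6 TPM. The order of neighbours held in 66 to 71 of the 71 mice except between H2-Q7 and Nlrc5, where H2-Q7 was the higher in 39 mice. Of all reads on the listed class I heavy chain genes, 38.9% fell on H2-D1, 23.98% on H2-K1, 10.9% on H2-T23 and 1.24% on H2-Q7.

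The members differed widely in how much they varied between mice of 1 group. H2-D1 had a within-group SD of 0.12 on the vst scale, and 0.143% of the 10508 genes had a lower one. The SD was 0.15 for H2-T23, 0.17 for Tap1, 0.19 for B2m, 0.20 for Nlrc5 and for Tap2, 0.23 for H2-K1 and 0.24 for Tapbp, beside a median of 0.26 over all genes. H2-Q7 was the exception, with an SD of 0.49 and 95.4% of the genes below it. The plot of vst values by mouse shows this contrast, with narrow clouds for H2-D1 and a scatter over more than 2 log2 units for H2-Q7.

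**Figure D1:**
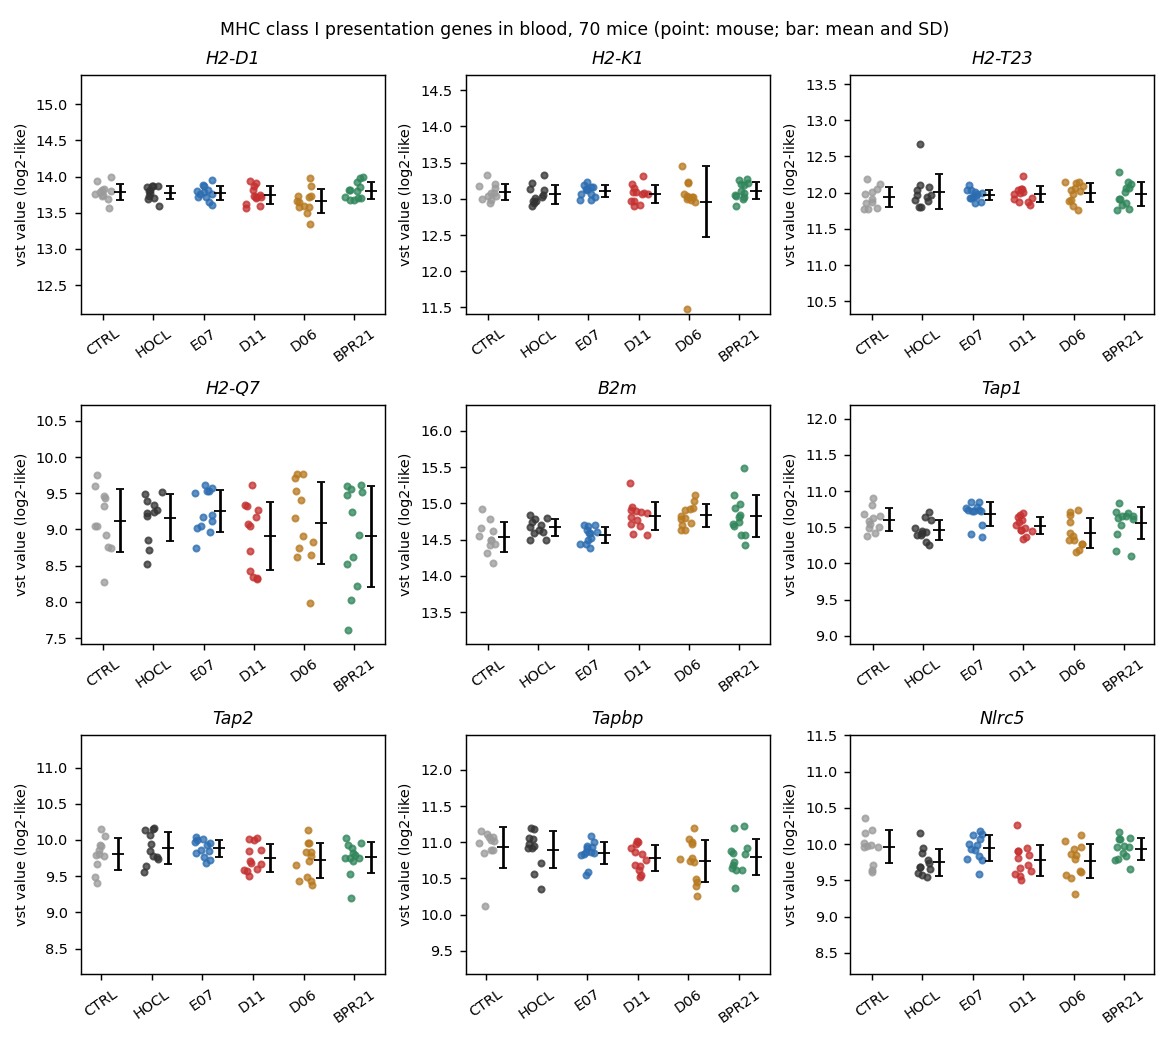
vst value (log2-like, y axis) of each class I gene in each of 70 mice by group (x axis), each panel spanning the same height. Points are mice and bars give the mean and SD of a group. The groups overlap for every gene, H2-D1 varies least and H2-Q7 most, and 1 D06 mouse lies far below all others for H2-K1 (11.48).

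On the vst scale the 9 members differed by -0.21 to 0.14 between HOCL and CTRL mice, and none passed the test. With the thresholds of the study, an FDR no higher than 0.05 together with a change of 1.3-fold or more, limma called 0 of the 9 members between HOCL and CTRL mice, where 4.96% of all genes were called. The median of the members' log2 fold changes was -0.01, beside -0.02 over all genes, and 8 of the 9 intervals of 95% stayed within 1.3-fold. One member had an unadjusted p under 0.05, as did 1885 of the 10508 genes. On counts, edgeR and DESeq2 also called 0 members. On counts scaled to the total count (CPM), where the median of all genes lay at -0.47, the members lay between -0.72 and -0.35 and 5 were called lower.

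Among the heavy chains, H2-D1 (a classical heavy chain) ran from 13.56 over a median of 13.79 to 13.99 in CTRL mice and from 13.60 over 13.79 to 13.87 in HOCL mice. Its difference was -0.01 (95% interval -0.14 to 0.12), so that the ranges nearly coincided. H2-K1, the other classical heavy chain among the members, ran from 12.95 over 13.07 to 13.32 in CTRL mice and from 12.90 over 13.02 to 13.33 in HOCL mice, a difference of -0.03 (-0.17 to 0.11). H2-L, listed among the other class I genes, was absent from the count table, so it could not be measured. H2-T23, which encodes Qa-1, the heavy chain read by CD94/NKG2A on natural killer cells, differed by 0.07 (-0.11 to 0.26), and by 0.01 without HOCL mouse 7. H2-Q7, a Qa-2 heavy chain, differed by 0.04 with a wide interval of -0.27 to 0.35.

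B2m ran from 14.18 over a median of 14.50 to 14.92 in CTRL mice and from 14.49 over 14.67 to 14.84 in HOCL mice. The difference of 0.14 (SE 0.08) did not pass the test (limma, adjusted p = 0.393), although 9 of 11 HOCL mice lay above the CTRL median. Tap1 differed by -0.14 (SE 0.07, adjusted p = 0.335) and Tap2, its partner in the transporter, by 0.09 (SE 0.10, adjusted p = 0.708). Tapbp differed by -0.03 (SE 0.11, adjusted p = 0.925). Nlrc5 ran from 9.62 over 9.98 to 10.35 in CTRL mice and from 9.55 over 9.69 to 10.16 in HOCL mice. The Nlrc5 difference of -0.21 (SE 0.09) was the largest of the 9 in this comparison, 10 of 11 HOCL mice lay below the CTRL median, and the value did not pass the test over all genes (limma, p = 0.0278, adjusted p = 0.202).

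The anti-galectin-3 mAb E07 was compared to HOCl alone next, and Tap1 was the member with the largest difference. limma called 0 of 9 members at both thresholds, with 7.89% of all genes called, while 9 of 9 intervals stayed within 1.3-fold. An unadjusted p under 0.05 was reached by 2 members and by 2996 of the 10508 genes. edgeR and DESeq2 called 0 members as well. At the FDR alone, Tap1 was higher in E07 mice, as were 5.07% of all genes. Tap1 ran from 10.26 over a median of 10.43 to 10.72 in HOCL mice and from 10.36 over 10.73 to 10.86 in E07 mice, and 10 of 12 E07 mice lay above the HOCL median. The difference was 0.22 (SE 0.07, limma adjusted p = 0.0336), with an adjusted p of 0.0163 by edgeR and of 0.0199 by DESeq2. The adjusted p rose above the threshold with the 6 groups in 1 fit (0.0503), with median centring (0.0508), with the mouse number as a block (0.0913) and in 3 of 11 fits that left out 1 HOCL mouse (up to 0.0594, without HOCL mouse 3, 6 or 12). With the erythroid markers as a covariate the difference was 0.11 (adjusted p = 0.732), and with the platelet markers 0.18 (adjusted p = 0.355). Of all genes, 0 and 426 passed the FDR with these covariates, in place of 1580. Nlrc5 had a median of 9.96 in E07 mice and a difference of 0.20 that did not pass with limma (SE 0.08, adjusted p = 0.0924) or DESeq2 (adjusted p = 0.0628) but passed the FDR with edgeR (0.31, adjusted p = 0.0419), and 11 of 12 E07 mice lay above the HOCL median. The 4 heavy chains differed by -0.05 to 0.09, and B2m by -0.11 (SE 0.06, adjusted p = 0.259).

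Compared to HOCl alone, limma called 0 of 9 members in D11, D06 and BPR21 mice, where 0.0571%, 0.133% and 0.638% of all genes were called. Intervals within 1.3-fold were obtained for 8, 5 and 8 of the 9 members, so that D06 mice left the widest room for a difference. Unadjusted p under 0.05 was reached by 0, 1 and 1 members, beside 1483, 1338 and 1474 of the 10508 genes, and edgeR and DESeq2 called 0 members. B2m had positive differences of similar size, namely 0.16 in D11 (adjusted p = 0.358), 0.16 in D06 (adjusted p = 0.368) and 0.15 in BPR21 mice (adjusted p = 0.494), with SEs of 0.077, 0.075 and 0.096 and in comparisons that share the same HOCL mice. Nlrc5 differed by 0.19 in BPR21 mice (adjusted p = 0.282), by 0.03 in D11 and by 0.02 in D06 mice. H2-Q7 had the largest negative values in D11 and BPR21 mice, each -0.25, with SEs of 0.16 and 0.21.

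**Figure D2:**
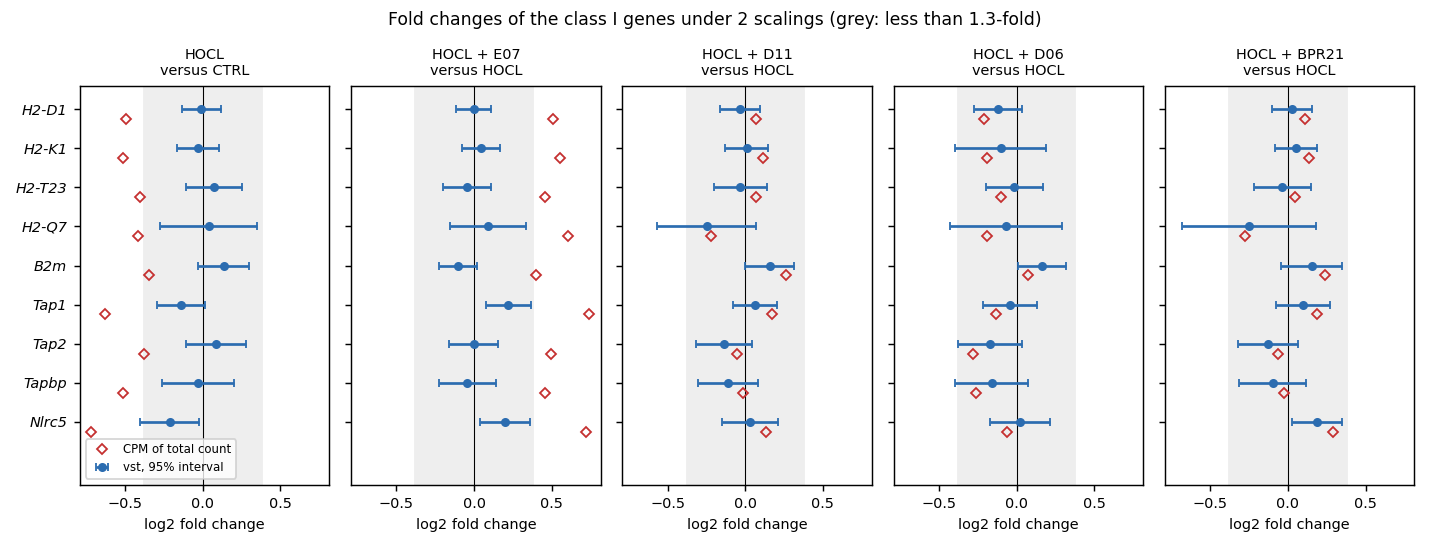
log2 fold change (x axis) of the 9 class I genes (y axis) in 5 comparisons. Blue points are differences in vst values with their 95% interval, red diamonds are differences in log2 of the CPM (counts scaled to the total count of a mouse) plus 1, and grey marks less than 1.3-fold. Blue points stay within the grey band, while the diamonds lie between -0.72 and -0.35 in HOCL versus CTRL and between 0.40 and 0.74 in E07 versus HOCL.

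Set against the PBS controls, the treated groups gave the same count of 0 members called by limma, with 0.00952% of all genes called for E07, 0.0761% for D11, 7.88% for D06 and 0.504% for BPR21 mice. The members with an unadjusted p under 0.05 numbered 0, 1, 2 and 1, beside 799, 1697, 2436 and 2095 of the 10508 genes. With edgeR and DESeq2, 0 members were called in each. B2m passed the FDR alone in D06 mice, as did 8.17% of all genes that were higher. B2m ran from 14.63 over a median of 14.81 to 15.11 in D06 mice, and all 12 lay above the CTRL median of 14.50, though the groups overlapped. The difference was 0.30 (SE 0.09, limma adjusted p = 0.0219), and 0.32 without D06 mouse 8. On log2 CPM the direction turned, to -0.27 (adjusted p = 0.103), beside a median of -0.57 over all genes. In this comparison 1 member passed the FDR with DESeq2, median centring, the 6 groups in 1 fit and the mouse number as a block. B2m also missed the FDR with edgeR (adjusted p = 0.121), with a trend and robust variances (adjusted p = 0.105) and with markers as a covariate. The difference was 0.10 with the platelet list (adjusted p = 0.710) and 0.18 with the erythroid list (adjusted p = 0.619). Of all genes, 5 and 4 passed the FDR with these 2 covariates, in place of 1053. D11 and BPR21 mice gave B2m differences from CTRL mice of 0.29 each (adjusted p = 0.118 and 0.135), and E07 mice one of 0.03 (adjusted p = 0.976).

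B2m was the 1 member that differed among the 6 groups in a single test (limma F test, adjusted p = 0.00237), a test passed by 18.3% of all genes. Tap1 (adjusted p = 0.0517) and Nlrc5 (adjusted p = 0.0969) came next, and Tap1 passed with edgeR (adjusted p = 0.0410). With either the erythroid or the platelet markers as a covariate, 0 members passed, and 380 and 290 of all genes did, in place of 1918. The order of the B2m group means was CTRL 14.54, E07 14.57, HOCL 14.67, BPR21 14.82, D11 14.83 and D06 14.83, with SDs of 0.11 to 0.29. By CPM the order was a different one, with means of 1696 in HOCL, 1806 in D06, 1996 in BPR21, 2049 in D11, 2178 in CTRL and 2232 in E07 mice (SDs of 219 to 429), and the F test on log2 CPM gave an adjusted p of 0.0197. On the vst scale the widest step between neighbours, from HOCL to BPR21 mice, did not pass the test of that pair (adjusted p = 0.494), and the others were smaller than the SDs.

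The 4 treatments were also compared directly, in 6 pairs, and limma called 0 members at both thresholds in every pair, as did edgeR. Of the 10508 genes, limma called 480 between E07 and D11, 1026 between E07 and D06 and 763 between E07 and BPR21 mice. It called 0 between D11 and D06, 0 between D11 and BPR21 and 6 between D06 and BPR21 mice, where nearly no gene could stand out. Against E07 mice, 4 members in D11, 2 in D06 and 1 in BPR21 mice had an unadjusted p under 0.05, beside 2192, 2922 and 2806 of the 10508 genes. In the other 3 pairs 0 members did, beside 655 genes for D11 and D06, 621 for D11 and BPR21 and 939 for D06 and BPR21 mice. By the FDR alone, E07 mice had less B2m than D11 mice, a direction shared by 5.27% of all genes. The B2m values ran from 14.38 over a median of 14.59 to 14.70 in E07 mice and from 14.57 over 14.84 to 15.28 in D11 mice, and all 12 E07 mice lay below the D11 median. The B2m level fell by 0.26 on the log2 scale (SE 0.07, limma adjusted p = 0.0286), which was lost with edgeR (adjusted p = 0.0561) and with the 6 groups in 1 fit (adjusted p = 0.0873). E07 mice also had less B2m than D06 mice, by the FDR alone, as for 10.8% of all genes. The difference was -0.27 (SE 0.07, adjusted p = 0.00632, and 0.0331 with edgeR). Tap1 went the other way in that pair, 0.27 higher in E07 mice (SE 0.08, adjusted p = 0.0246), as were 4.63% of all genes, and 12 of 12 E07 mice lay above the D06 median of 10.36. On log2 CPM both B2m differences turned sign, to 0.14 against D11 mice (adjusted p = 0.276) and 0.33 against D06 mice (adjusted p = 0.0170), beside medians of 0.39 and 0.59 over all genes. Both differences in the pair of E07 and D06 on the vst scale also passed without D06 mouse 8 (adjusted p = 0.00349 for B2m and 0.0118 for Tap1). With the platelet markers as a covariate none of these 3 passed (adjusted p = 0.521 to 0.680). Of all genes, 0 passed the FDR with this covariate between E07 and D11 mice and 15 between E07 and D06 mice. Without it 678 and 1627 passed, so the loss is not particular to these members. The 2 anti-galectin-3 mAbs E07 and D11 gave heavy chain levels with differences of 0.03 for H2-D1 (95% interval -0.09 to 0.15), 0.04 for H2-K1 (-0.08 to 0.15) and -0.01 for H2-T23 (-0.12 to 0.10), intervals that stay within 1.3-fold. H2-Q7 had the largest difference of that pair, 0.34 higher in E07 mice, with an interval of 0.04 to 0.64 (adjusted p = 0.171).

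The scaling of the counts decided whether the pathway as a whole appeared to move. The vst values rest on size factors, whereas scaling to the total count divides by the sum of all reads, whichever transcripts take them. Why these scalings differed between groups was not tested. The 9 members together took 0.512% ± 0.098 (SD, n = 11) of all counts in CTRL mice, 0.380% ± 0.078 (n = 12) in HOCL, 0.520% ± 0.061 in E07, 0.425% ± 0.080 in D11, 0.366% ± 0.065 in D06 and 0.424% ± 0.073 in BPR21 mice (n = 12 each). On CPM, 5 members were called lower in HOCL than in CTRL mice, with 48.9% of all genes called lower. All 9 were called higher in E07 than in HOCL mice, with 62.5% of all genes called higher. In D06 compared to CTRL mice 8 members were called lower, with 64.3% of all genes. The F test was passed by all 9 members and by 74.9% of all genes. This scaling moved the median gene by -0.47, 0.49 and -0.57 in these 3 comparisons. Relative to that shift the members lay between -0.25 and 0.12, between -0.09 and 0.25, and between -0.21 and 0.29. Between E07 and D11, D06 or BPR21 mice the median gene moved by 0.39, 0.59 and 0.41. Tap1 in E07 compared to HOCL mice lay 0.25 above the shift of all genes, and B2m in D06 compared to CTRL mice 0.29 above it.

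A ratio of reads between 2 kinds of member within a mouse does not depend on the scaling. It was computed after the values had been seen and is given without a test. B2m reads per read of the 4 heavy chains had a median of 0.864 in CTRL mice (0.721 to 1.16), 0.939 in HOCL mice (0.711 to 1.14) and 0.913 in E07 mice (0.755 to 1.03). The median was 1.06 in D11 mice (0.920 to 1.35), 1.08 in D06 mice (0.955 to 1.505) and 1.02 in BPR21 mice (0.864 to 1.46). The light chain thus took more reads relative to the heavy chains in the latter 3 groups, with overlap of all 6 groups. The highest D06 value was that of D06 mouse 8, without which the D06 mice reached 1.38 with a median of 1.08.

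**Figure D3:**
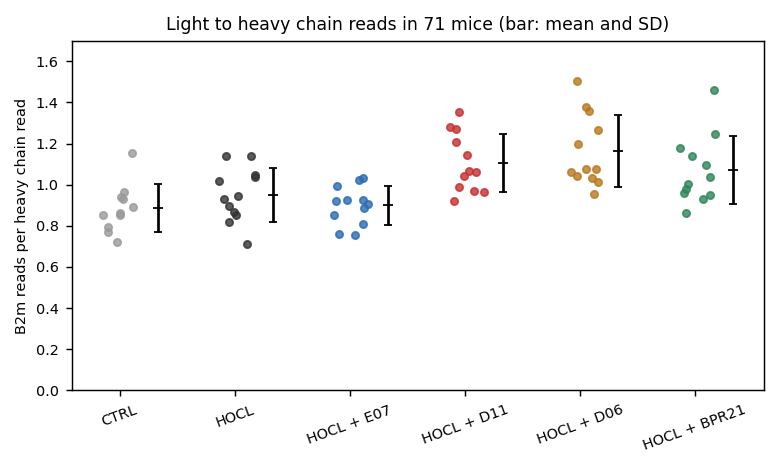
B2m reads per read on H2-D1, H2-K1, H2-T23 and H2-Q7 together (y axis) in 71 mice by group (x axis), with the mean and SD of each group as bars. The D11, D06 and BPR21 mice reach up to 1.35, 1.505 and 1.46, and the E07 mice stay at or below 1.03. The highest D06 point is D06 mouse 8.

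Of 62 other genes of the pathway, 3 (4.84%) passed both thresholds in HOCL compared to CTRL mice, a share near the 4.96% of all genes. In HOCL compared to CTRL mice, 1 of 7 proteasome genes, 1 of 23 genes of class I transcription and interferon input and 1 of 8 class I receptors passed both thresholds, beside 0 of 8 peptide loading partners and 0 of 16 other class I genes. Psme3, the subunit of a nuclear proteasome activator, was 1.26 higher (SE 0.26, limma adjusted p = 0.00562). Ifnar2, a chain of the type I interferon receptor, was 0.59 higher (adjusted p = 0.0407). Klrc1, which encodes the NKG2A receptor for Qa-1, fell by 0.46 (adjusted p = 0.0172). Both rises had their opposite in E07 compared to HOCL mice, in comparisons that share the HOCL mice. There Psme3 fell by 1.45 (adjusted p = 0.000115) and Ifnar2 fell by 0.65 (adjusted p = 0.00611). D06 mice had higher Psme3 (1.00, adjusted p = 0.0197) and Ifnar2 (0.45, adjusted p = 0.0426) than CTRL mice. These 2 of 62 genes (3.23%), and the 2 in E07 compared to HOCL mice, stand beside 7.88% and 7.89% of all genes. The erythroid list moved the same way, with 22 of 25 genes called higher in HOCL compared to CTRL mice (median 1.39), 24 called lower in E07 compared to HOCL mice (median -1.45) and 25 called higher in D06 compared to CTRL mice (median 1.19). With that list as a covariate the Psme3 differences were 0.04, -0.27 and -0.32 and the Ifnar2 differences -0.09, 0.15 and -0.09, and none passed (adjusted p = 0.408 to 0.926). Of all genes, 1, 0 and 4 were called with this covariate, in place of 521, 829 and 828. On log2 CPM, Ifnar2 passed in none of the 3 comparisons (0.18, -0.23 and -0.06), and in HOCL compared to CTRL mice it was lost without HOCL mouse 4, 5, 6, 9 or 11 (adjusted p up to 0.0672). Klrc1 in HOCL compared to CTRL mice did not pass with edgeR (adjusted p = 0.0557) or with the erythroid covariate (-0.39, adjusted p = 0.333).

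By the FDR alone, E07 compared to HOCL mice added several genes of small change. Psmb8, a catalytic subunit of the immunoproteasome, was 0.17 higher (adjusted p = 0.0456). The heavy chain genes H2-Q4, H2-T10 and H2-Bl were higher by 0.28, 0.31 and 0.31, whereas H2-T24 fell by 0.28. Rfx5, a subunit of the factor that binds MHC promoters, was 0.27 higher and Klrc1 0.35 higher, while Ifngr1, a chain of the interferon-γ receptor, fell by 0.22. That made 3 of 16 other class I genes higher and 1 lower, beside 5.07% higher and 9.96% lower among all genes. In the other lists, 1 of 7 proteasome genes was higher and 1 lower, and 1 of 23 genes of transcription and interferon input was higher and 2 lower. Of the 8 class I receptors 1 was higher and 0 lower, and 0 of 8 peptide loading partners passed. No list was tested as a set. In BPR21 compared to HOCL mice Hfe, a class I-like gene of iron homeostasis, fell by 0.43 (adjusted p = 0.0388), a call that was lost without HOCL mouse 3, 4, 5, 6, 7, 9 or 10 (adjusted p up to 0.0843).

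On the vst scale the members did not move as 1 block within the groups. Correlations were computed over 70 mice after removal of the group means, for 108 pairs of a member with another member or with a list of blood cell markers, with permutation within groups. The mice of a pair share their library and its scaling. H2-D1 and H2-K1 went together most closely among the members (Pearson r = 0.60, permutation p = 1e-05, the smallest that the permutations can give, adjusted p = 0.00036, and Spearman rho = 0.56, p = 1e-05). Without the 2 mice farthest from the median r was 0.57. Within groups r ran from 0.14 in HOCL to 0.91 in D11 mice. Tap1 with Tapbp (r = 0.34), Tap2 with Tapbp (r = 0.36) and Tap1 with Nlrc5 (r = 0.33) had adjusted permutation p of 0.0427, 0.0339 and 0.0425, and H2-T23 with Tapbp a negative r of -0.43 (adjusted p = 0.0108, r = -0.33 without HOCL mouse 7). H2-D1 with H2-T23 (r = 0.31, adjusted p = 0.0427) and H2-T23 with B2m (r = 0.38, adjusted p = 0.0145) also passed by permutation. Pairs of Tap1 or Tap2 with a heavy chain lay between -0.22 and 0.15. On log2 CPM the few member pairs that were computed had higher r. H2-T23 with Tapbp changed sign to 0.70, B2m with Tap1 went from -0.28 to 0.72, Tap1 with Tap2 from 0.32 to 0.84 and H2-D1 with H2-K1 to 0.86. Pairs of other genes were not computed on this scale, so a rise particular to the members is not shown. On the same scale B2m and Tap1 had r of -0.76 and -0.71 with the erythroid list.

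**Figure D4:**
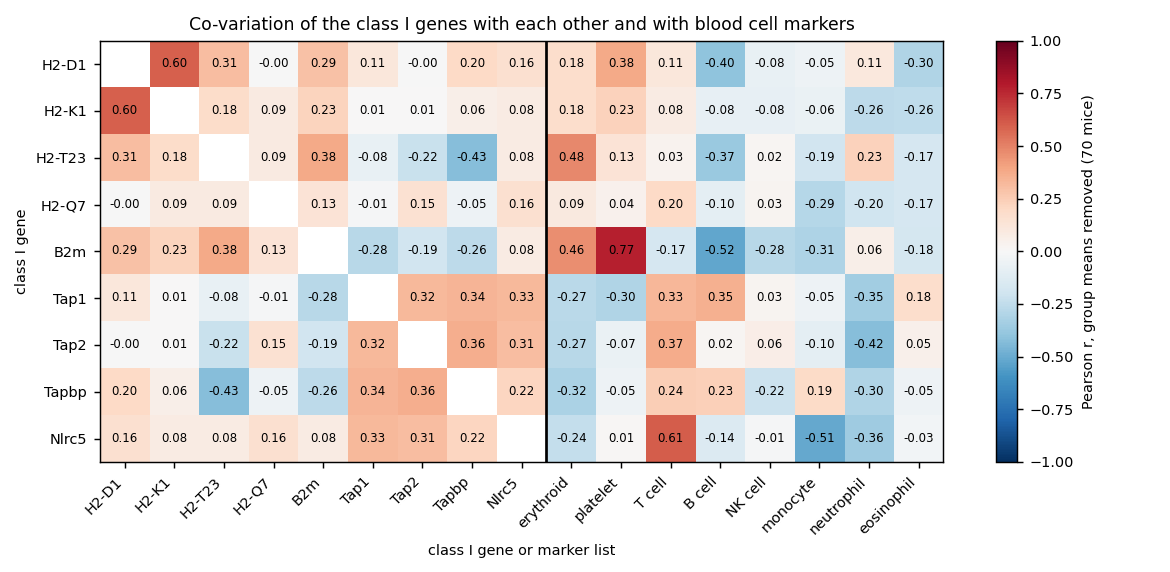
Pearson r over 70 mice with group means removed, between the 9 class I genes (y axis) and the same genes or the mean of each list of blood cell markers (x axis). The highest values are B2m with the platelet list (0.77) and Nlrc5 with the T cell list (0.61).

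On the vst scale B2m followed platelet transcripts. Its r with the mean of 11 platelet markers was 0.77 (permutation p = 1e-05, adjusted p = 0.00036), Spearman's rho was 0.66 (p = 1e-05), and r was 0.70 without the 2 farthest mice. The relation was positive in each of the 6 groups, from 0.53 in HOCL to 0.89 in D11 mice, and r was 0.66 on log2 CPM. On that scale it was not particular to platelets, since B2m had a higher r of 0.76 with the T cell list. With that list r was -0.17 on the vst scale. The 3 genes most like B2m across mice, chosen after their values were seen, were Gng11 (0.87), Ctla2a (0.85) and Pf4 (0.85), the last of which encodes platelet factor 4. The platelet list itself differed between groups on the vst scale. In HOCL compared to CTRL mice 6 of its 11 genes were called higher (median 0.48, with 4.96% of all genes called), in E07 compared to HOCL mice 10 were called lower (median -0.53, 7.89%), and in D06 compared to CTRL mice 6 were called higher (median 0.50, 7.88%). On log2 CPM the medians of the list were 0.04, -0.04 and -0.06, beside -0.47, 0.49 and -0.57 over all genes. The mean platelet score was -0.68 in CTRL and -0.77 in E07 mice, and between 0.24 and 0.46 in the other 4 groups. The part of platelets in the B2m differences was not tested. The covariate fits given above cannot measure it, because the platelet score itself differed between groups. B2m also had an r of -0.52 with the B cell list and 0.46 with the erythroid list (adjusted permutation p = 0.00216 each, Spearman's rho -0.42 and 0.39), and the latter changed sign to -0.76 on log2 CPM.

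Nlrc5 followed T cell transcripts. Its r with 13 T cell markers was 0.61 (permutation p = 1e-05, adjusted p = 0.00036, Spearman's rho = 0.57, p = 2e-05), and 0.57 without the 2 farthest mice. It was positive in each group, from 0.26 in E07 to 0.77 in HOCL mice. Cd3e, a chain of the T cell receptor complex, was the gene most like it (r = 0.66, named after its values were seen). Nlrc5 also had negative r with the monocyte list (-0.51, adjusted permutation p = 0.00081) and with the neutrophil list (-0.36, adjusted permutation p = 0.0145). Tap1 (r = 0.33) and Tap2 (r = 0.37) followed the T cell list more loosely, with adjusted permutation p of 0.0390 and 0.0248. Tap1 also had an r of 0.35 with the B cell list (adjusted p = 0.0438), which was 0.18 without the 2 farthest mice. Of that list, 9 of 12 genes were called higher in E07 compared to HOCL mice (median 0.52), beside 92 of all 10508 genes. A part of B cells in the Tap1 difference was not tested. Tap2 had an r of -0.42 with the neutrophil list (adjusted p = 0.0136), and of -0.28 without the 2 farthest mice. Between groups the T cell list gave 0 called genes in HOCL compared to CTRL and in E07 compared to HOCL mice, with medians of -0.13 and 0.07. H2-T23 had an r of 0.48 with the erythroid list (adjusted p = 0.00309), which was 0.39 without HOCL mouse 7. Its r with the B cell list was -0.37 (adjusted permutation p = 0.0255). H2-D1 had an r of -0.40 with the B cell list and of 0.38 with the platelet list (adjusted permutation p = 0.0074 and 0.0145). The latter ran from -0.22 in HOCL to 0.85 in BPR21 mice. By the rule for named genes, those most like the mean of the 9 z-scored members were Ppp1r13b (0.62), Cd4 (0.61), Chd3 (0.61), Fam78a (0.61) and Lat (0.60), over the same 70 mice.

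H2-Q7 varied against its neighbour H2-Q6. Of 10507 genes, H2-Q6, another Qa-2 gene with a near-identical sequence, had the most negative correlation with H2-Q7 across mice, with an r of -0.54 after removal of the group means. It was negative in each of the 6 groups, from -0.70 to -0.38. On log2 of normalised counts plus 1, the within-group SD was 0.65 for H2-Q7 and 0.51 for H2-Q6, but 0.27 for the sum of their counts. The H2-Q7 values above are therefore uncertain as values of that gene alone. This pair was chosen after its values were seen.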

How the data were processed

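The authors trimmed the reads with Cutadapt, aligned them to mm39 with STAR and counted reads per gene with featureCounts; for these mouse libraries the versions of these 3 tools and the annotation release are not given in the sources used here. They deposited raw counts for 71 mice and log2-like vst values, made with DESeq2, for 10508 genes and 70 mice. Totals of 11932855 to 15948972 counts limit the precision of low genes, and the TPM values were computed here from counts and GENCODE vM39 exon lengths. Each pair of groups was fitted on its vst values in limma 3.58.1 (R 4.3.3), two-sided, with Benjamini-Hochberg adjustment over all genes. A gene was called when its FDR was no higher than 0.05 and it changed by 1.3-fold or more. Counts were compared with edgeR 4.0.16 (glmQLFit, glmQLFTest) and DESeq2 1.42.0 as alternatives, for 10501 genes paired by symbol. Correlations used 100000 permutations within groups in Python 3.11.15 with numpy 2.4.6. For total-count scaling, 1 was added to the CPM before taking log2. On simulated counts for HOCL and CTRL mice (10501 genes, 200 changed), limma recovered 54% of 1.5-fold and 93% of 2-fold changes with 11 false calls. Named genes were the 9 members, genes of the pathway lists past both thresholds or, failing these, with the smallest p, the 5 genes most like the members, and Lgals3. Members and lists were chosen with earlier results of these data known. Other alternatives were further filters on low counts, median centring, limma with a trend and robust variances, marker lists as covariates, the mouse number as a block, and HOCL mice left out in turn. The covariate for platelets, D06 mouse 8 left out, and some settings between treatments were chosen after the data had been seen. Mouse numbers come from the titles and same-numbered mice are different animals.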

Additional observations from a re-analysis of the deposited data

Results flagged for a closer look

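Differences between 2 treatments of the same model were singled out where the direct test of the pair passed the FDR over all genes. For B2m, E07 mice lay below D11 mice (difference of -0.26 on the vst scale, limma adjusted p = 0.0286, all 12 E07 mice below the D11 median) and below D06 mice (-0.27, adjusted p = 0.00632, 12 of 12 below the D06 median). Tap1 was higher in E07 than in D06 mice (0.27, adjusted p = 0.0246, 12 of 12 above the D06 median). With the platelet markers as a covariate the 3 differences were -0.09, -0.09 and 0.17, and none passed the test (adjusted p = 0.680, 0.666 and 0.521). Of all genes, 0 passed the FDR with it between E07 and D11 mice and 15 between E07 and D06 mice, in place of 678 and 1627. On log2 CPM both B2m differences turned sign, to 0.14 against D11 mice and 0.33 against D06 mice, beside medians of 0.39 and 0.59 over all genes. On the vst scale none of the 3 reached a fold change of 1.3.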

How the results depend on the processing

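The count of 0 members called in the 9 comparisons with HOCL or CTRL mice was obtained with limma, edgeR, DESeq2, 3 filters on low counts, median centring, a trend with robust variances, the 6 groups in 1 fit, both covariates and the replicate block (0 members in each), and in the 5 comparisons with HOCL mice also with each HOCL mouse left out. It changed with total-count scaling (5 members in HOCL versus CTRL, 9 in E07 versus HOCL, 8 in D06 versus CTRL, and 24 over the 6 pairs of treatments) and at the FDR alone (1 in E07 versus HOCL, 1 in D06 versus CTRL, 3 between treatments). With total-count scaling, 4664, 7790 and 4811 of 10501 genes were called between E07 and D11, D06 or BPR21 mice, and 0 in the other pairs of treatments. The F test gave 1 member with limma and with the replicate block, 2 with edgeR, 9 with total-count scaling and 0 with either covariate. The cause was not tested. The correlation of same-numbered mice ran as low as -0.36 in HOCL versus CTRL. Its mean was nevertheless above that of other pairs in each comparison, with 0.15 and -0.01 in E07 versus CTRL. On the same mice the block took the genes called from 58 to 534 in BPR21 versus CTRL and from 300 to 85 in HOCL versus CTRL. What same-numbered mice may share was not tested. Total-count scaling also turned the sign of B2m in D06 versus CTRL (0.30 to -0.27), E07 versus D11 (-0.26 to 0.14) and E07 versus D06 (-0.27 to 0.33). In the 5 comparisons with HOCL mice, differences that changed sign were of -0.11 to 0.14 on the vst scale, and none had been called. In HOCL versus CTRL total-count scaling gave -0.41 for H2-T23, -0.42 for H2-Q7, -0.35 for B2m and -0.38 for Tap2, the erythroid covariate -0.18 for H2-T23 and 0.26 for Tapbp, DESeq2 0.0021 for H2-D1 and 0.016 for Tapbp, median centring 0.0047 for H2-D1, the platelet covariate -0.014 for B2m, and the replicate block 0.0013 for Tapbp. For H2-Q7 edgeR gave -0.0031, and -0.013, -0.013, -0.0098 and -0.013 with the count filter, filterByExpr, no filter and the mice of the vst table. In E07 versus HOCL total-count scaling gave 0.51 for H2-D1, 0.46 for H2-T23, 0.40 for B2m, 0.50 for Tap2 and 0.46 for Tapbp, and the erythroid covariate 0.027 for H2-D1, -0.014 for H2-K1, 0.17 for H2-T23 and -0.0050 for H2-Q7. The platelet covariate gave 0.014 for B2m and 0.079 for Tapbp, and edgeR 0.019 for H2-D1, then 0.022, 0.021, 0.015 and 0.032 in the same order as above, with 0.014 for Tap2 on the mice of the vst table. For H2-T23 the erythroid covariate gave 0.034, 0.0051 and 0.075 in D11, D06 and BPR21 versus HOCL, and total-count scaling 0.071 in D11 and 0.047 in BPR21, with 0.072 for H2-D1 in D11 and -0.063 for Nlrc5 in D06. In D06 versus HOCL DESeq2 gave 0.0019 for H2-T23 and 0.0031 for H2-Q7, and both the replicate block and the fit without D06 mouse 8, which the block also drops because HOCL mouse 8 has no vst values, gave 0.033 for H2-K1 and 0.0077 for H2-T23. With each HOCL mouse left out, the ranges that crossed 0 were -0.019 to 0.0088 for H2-D1 and -0.062 to 0.023 for Tapbp in HOCL versus CTRL, -0.020 to 0.0077 for H2-D1, -0.068 to 0.019 for H2-T23 and -0.037 to 0.024 for Tap2 in E07, -0.0071 to 0.035 for H2-K1 and -0.056 to 0.031 for H2-T23 in D11, -0.036 to 0.051 for H2-T23 in D06, where H2-K1 ran from -0.117 to 0.033 with D06 mouse 8 among those left out, and -0.058 to 0.029 for H2-T23 in BPR21 versus HOCL.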
